A study of Homo sapiens with 6 samples.

Results

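SOX2 and TP63 are 2 of the 59665 genes of the RefSeq table on the chromosomes, and of its 20037 protein-coding genes. They were chosen as the transcription factors that define squamous lineage, and every peak overlapping the GRCh38 span of either gene or the 100 kb on either side of it was taken. After the 6 lists were merged, this gave 49 distinct regions in the SOX2 window (202.5 kb) and 111 in the TP63 window (500.5 kb), of 507440 in the whole genome. Both windows lie on the long arm of chromosome 3, at positions 181611925 to 181814436 and 189496746 to 189997276.

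ATAC-seq marks open chromatin by sequencing where a transposase can insert into the DNA, and a peak is a stretch with more sequenced fragments than the background. All 6 libraries came from NCI-H1703, an established human cell line that the labels describe as lung squamous cell carcinoma. In 3 of them the long non-coding RNA DLGAP1-AS2 had been silenced, and 3 were controls of a kind the labels do not describe further. Nothing in the labels says that libraries of a group came from separate cultures, so a p-value measures only the spread between these libraries, and the lists hold no RNA measurement that would show the degree of silencing.

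SOX2 is an HMG-box transcription factor of stem and progenitor cells, including the basal cells of the airway and oesophagus, and its gene sits inside the long non-coding gene SOX2-OT. TP63 encodes p63, a member of the p53 family that basal cells of stratified epithelia need. It has an outer promoter for the full-length TA forms and an inner promoter for the shorter ΔN forms, which are the ones usually found in squamous cells. Both genes lie in a stretch of chromosome 3 that is often gained in squamous tumours, and antibodies to p63 and its ΔN form are used to tell squamous from glandular lung cancer.

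The lists held between 91346 peaks (control replicate 2) and 170882 peaks (control replicate 1). Read totals are not known. A relative depth was estimated as the smallest background coverage behind any peak, worked out from its height and fold enrichment on the assumption that the caller adds 1 to both terms of the ratio. It was lowest in silenced replicate 3 (0.237) and highest in control replicate 2 (0.464), with 0.369 to 0.402 in the other libraries. The height of a peak is the authors' pileup of fragments, and whether heights were scaled between libraries is not given in the sources used here.

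The listed promoters of the members are shown first, because they carried the plainest difference between the 2 genes: one lay under a peak in every library and the other under almost none. For TP63 this is the promoter of its 1 listed start, and the start of its ΔN forms is not given. Each sequence is the RefSeq promoter of GRCh38.p14, from 250 bases before to 50 after the start, plus strand, 5′ to 3′. Capitals mark matches to motifs on either strand. SOX2 is at chr3:181711675-181711974 and TP63 at chr3:189631139-189631438.
SOX2: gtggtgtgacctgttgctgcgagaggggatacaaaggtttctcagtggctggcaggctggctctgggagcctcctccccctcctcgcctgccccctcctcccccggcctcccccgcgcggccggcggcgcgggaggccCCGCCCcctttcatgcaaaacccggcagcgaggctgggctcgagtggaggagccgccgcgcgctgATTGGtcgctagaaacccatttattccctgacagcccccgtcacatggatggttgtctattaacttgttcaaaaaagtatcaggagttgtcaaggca
TP63: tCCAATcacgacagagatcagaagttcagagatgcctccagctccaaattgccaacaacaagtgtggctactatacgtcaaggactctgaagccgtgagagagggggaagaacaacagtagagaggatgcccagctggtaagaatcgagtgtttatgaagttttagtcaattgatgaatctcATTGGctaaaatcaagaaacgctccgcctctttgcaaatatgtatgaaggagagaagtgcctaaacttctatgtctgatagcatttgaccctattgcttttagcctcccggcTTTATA

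In the SOX2 promoter the capitals are an SP motif (GGGCGG, here on the minus strand), which 44.9% of the 34943 promoters of the table hold, and a CCAAT box (CCAAT, minus strand), held by 34.6%. The TP63 promoter has 2 CCAAT boxes, one on each strand, and TATAAA on the minus strand after the start, a word found in 11.6% of promoters. None of the matches overlap. The other motifs searched were the TEAD word CATTCC (14% of promoters), the AP-1 word TGANTCA (7.72%), the SOX word AACAAT (10.1%) and GNCATGN for the core of a p53 family site (31.8%). These letters are in neither of the 2 promoter sequences shown, and the rest of the windows was not searched. The SOX2 promoter is 63.3% G and C with 20 CG pairs, and the TP63 promoter 43.7% with 7, where the median promoter has 58.7% and 14.

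The start of SOX2 lay under a peak in all 6 libraries. With replicates always given in the order 1, 2 and 3, the peaks covered 300, 299 and 260 of the 300 bases shown in the silenced libraries and 260, 300 and 300 in the control libraries. Together they made 1 region, from 181711619 to 181712132. Its heights were 17, 12 and 10 in the silenced and 19, 20 and 20 in the control libraries. The silenced libraries were thus all lower, and the groups did not overlap. The same was true of 8.79% of the 37284 regions called in all 6 lists, while 0.161% had all silenced libraries higher. Heights may depend on depth, and silenced replicate 3 had the lowest coverage. The part of coverage in this was not tested, and the split is not taken as a result about SOX2. By fold enrichment over background, the values were 5.84, 4.42 and 5.73 in the silenced and 5.71, 6.82 and 6.44 in the control libraries, and here the groups overlapped.

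**Figure D1:**
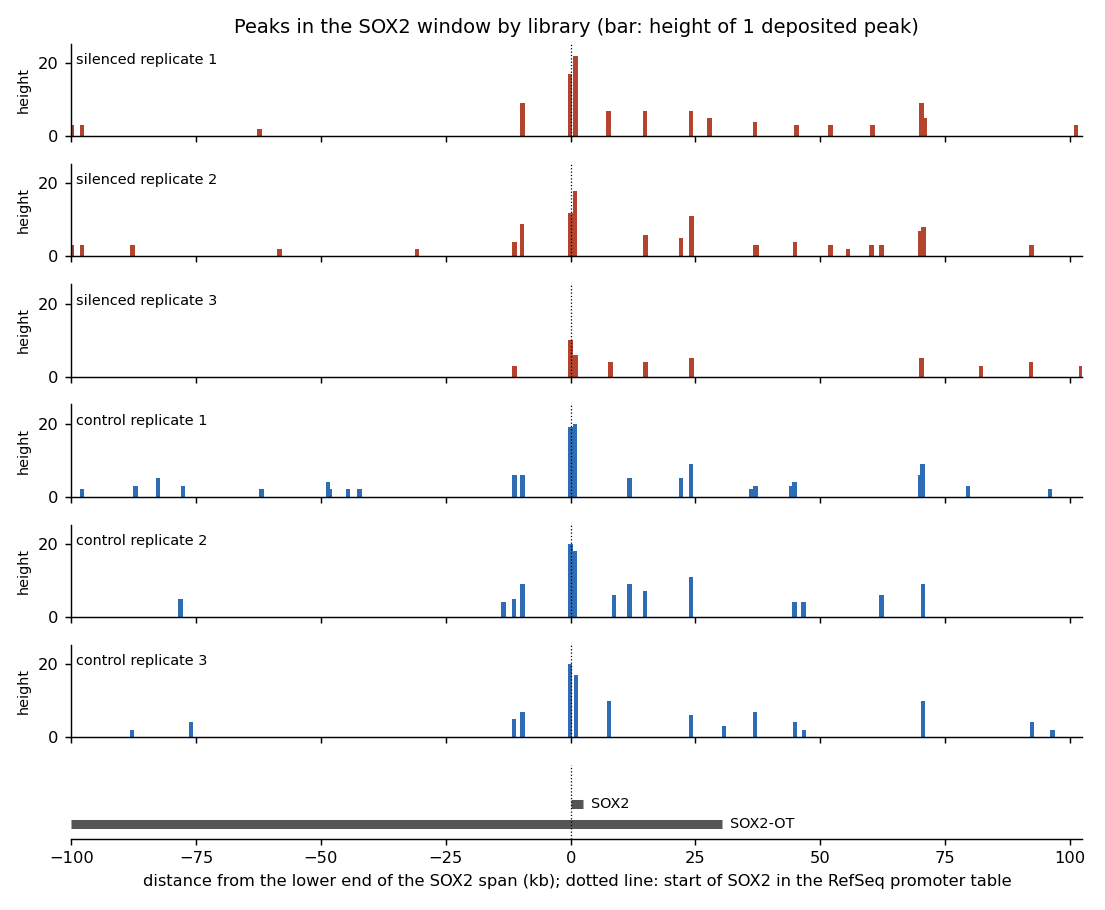
Each bar is 1 deposited peak, placed by its distance from the start of the SOX2 span (kb) with its height (fragments) on the vertical axis, for each of the 6 libraries, with gene spans below. Peaks stand at the start of SOX2 and 1.0 kb inside it in every library, with heights of 6 to 22, and lower peaks recur at 24.2 and 70.4 kb.

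A second region, from 181712548 to 181713275 with its centre 1.0 kb after the start, lay inside the gene in all 6 libraries. SOX2 has a single exon, so this region is exonic. Its heights were 22, 18 and 6 in the silenced libraries and 20, 18 and 17 in the control libraries. Only silenced replicate 3, the library of lowest coverage, fell below 17, and the part of coverage in this was not tested. No library had any other peak in the 2.5 kb of the gene. The strongest peak within 1 kb of the SOX2 start had a fold enrichment of 5.73 to 7.52, below the median of 8.82 to 11.5 for all protein-coding genes with a peak within 1 kb of a listed start in the same library. That placed SOX2 between the 20.0 and 29.0 percentile of such genes.

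Outside the gene, 2 further regions were called in every library, at 24.2 kb and 70.4 kb after the start. The first (181735914 to 181736266) lies in the span of SOX2-OT and had heights of 7, 11 and 5 in the silenced and 9, 11 and 6 in the control libraries. The second (181781806 to 181782858), beyond the end of SOX2-OT, had heights of 9, 8 and 5 and of 9, 9 and 10. In height the groups overlapped at each. In fold enrichment they did not overlap at 70.4 kb, with 5.68, 5.29 and 4.23 in the silenced and 6.58, 5.81 and 6.18 in the control libraries, and the silenced libraries were likewise all lower at 8.44% of the regions called in all 6 lists. A region upstream, at -9.7 kb (181702091 to 181702434), reached a height of 9 in both silenced libraries that had it and of 6, 9 and 7 in the control libraries. Silenced replicate 3 did not have it. Of the 19 regions before the gene, 14 were called in a single library, as were 16 of the 28 after it.

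SOX2-OT has 3 listed starts, and none had a peak within 1 kb in any library. The nearest peak to the middle one, at 181175144, lay 1342 to 1618 bp above it in all 6 libraries, with heights of 3 to 7. Every peak of the SOX2 gene also lies in the SOX2-OT span, so the lists cannot assign it to one of the genes. The small pseudogene RN7SL703P at the edge of the window carried no peak.

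At TP63 the picture was the reverse. The listed start, at 189631389, had a peak within 1 kb in control replicate 3 alone, of height 2, the lowest height in that list, covering 98 of the 300 bases shown. In the silenced libraries the nearest peak was 6.63, 32.5 and 13.3 kb away, and 3, 2 and 2 high. It was 5.54 kb away in control replicate 1 and 79.2 kb in control replicate 2. Among the 15843 protein-coding genes with a listed start, 62.6% had a peak within 1 kb in all 6 libraries, like SOX2, and 17.1% in none. The lower end of the TP63 span, 34.6 kb before the listed start, had a peak of height 2 within 1 kb in silenced replicate 1, a peak of height 3 in silenced replicate 2, and none elsewhere.

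**Figure D2:**
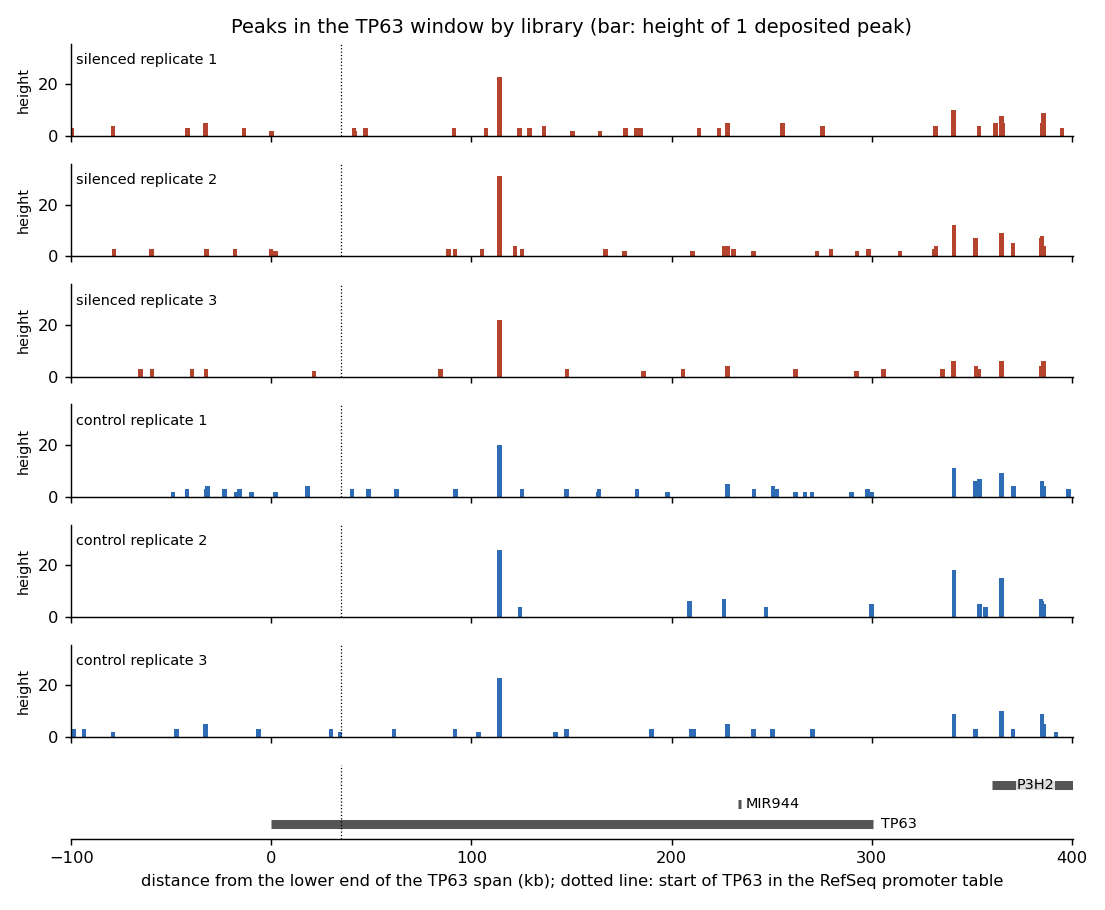
Each bar is 1 deposited peak, placed by its distance from the lower end of the TP63 span (kb) with its height (fragments) on the vertical axis, for each of the 6 libraries, with gene spans below and the listed start as a dotted line. One peak of height 20 to 31 recurs at 114.1 kb inside TP63, while the listed start has a single peak of height 2, in control replicate 3.

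Inside TP63 there were 69 regions, 56 of them in 1 library only and 1 in every library. That 1 region (189710567 to 189711044, 478 bp) lay 114.1 kb from the lower end of the span and 79.4 kb after the listed start. Its heights were 23, 31 and 22 in the silenced libraries and 20, 26 and 23 in the control libraries. The groups overlapped, and silenced replicate 3, the library of lowest coverage, was higher than control replicate 1 and lower than the other 4. Fold enrichment was 12.9, 15.7 and 13.4 in the silenced and 11.9, 13.0 and 13.5 in the control libraries, above the 4.42 to 6.82 of the SOX2 start in each library. It was also the sole peak inside TP63 with an FDR (the authors' adjusted p-value) of at most 1e-05 in any library. Every other peak inside the gene was at most 5, 4 and 4 high in the silenced and 5, 7 and 5 in the control libraries.

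The gene table gives spans but neither exons nor the start of the ΔN forms, so whether this region lies in an intron or near the inner promoter was not analysed here. The next most frequent region in TP63 (189824448 to 189824933, 227.9 kb from the lower end) was called in 5 libraries with heights of 4 or 5, and not in control replicate 2. MIR944, a microRNA gene within TP63, had no peak over it, and the nearest one was 2104 to 6651 bp below it. The number of peaks inside TP63 was 20, 18 and 9 in the silenced and 24, 6 and 15 in the control libraries, so the range within each group was wide and the groups overlapped.

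Beyond the end of TP63, 4 regions were called in every library. One lay between TP63 and its neighbour P3H2 (a collagen prolyl hydroxylase gene), at 341.1 kb, with heights of 10, 12 and 6 in the silenced and 11, 18 and 9 in the control libraries. The other 3, at 364.9, 385.0 and 385.9 kb, lay inside P3H2, with heights from 4 to 15. P3H2 runs on the minus strand and one of its 2 listed starts, outside the window at 190120897, was covered in all 6 libraries by peaks of 28 to 99. The pseudogene MTAPP2 carried no peak. Of the 24 regions before TP63, none was called in all 6 libraries and 22 were called in 1.

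The 2 windows also differed in how often a region recurred. In the SOX2 window 61.2% of regions came from 1 library alone and 8.16% from all 6, and in the TP63 window 79.3% and 4.50%. Over the genome these shares were 74.1% and 7.35%. Regions called once had a median height of 3 in both windows, as in the whole genome. Control replicate 1 alone accounted for 12 of the 30 such regions of SOX2, and silenced replicate 1 and control replicate 1 for 23 and 22 of the 88 of TP63. Control replicate 2, whose list holds hardly any peaks under a height of 4, gave 3 in each window.

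**Figure D3:**
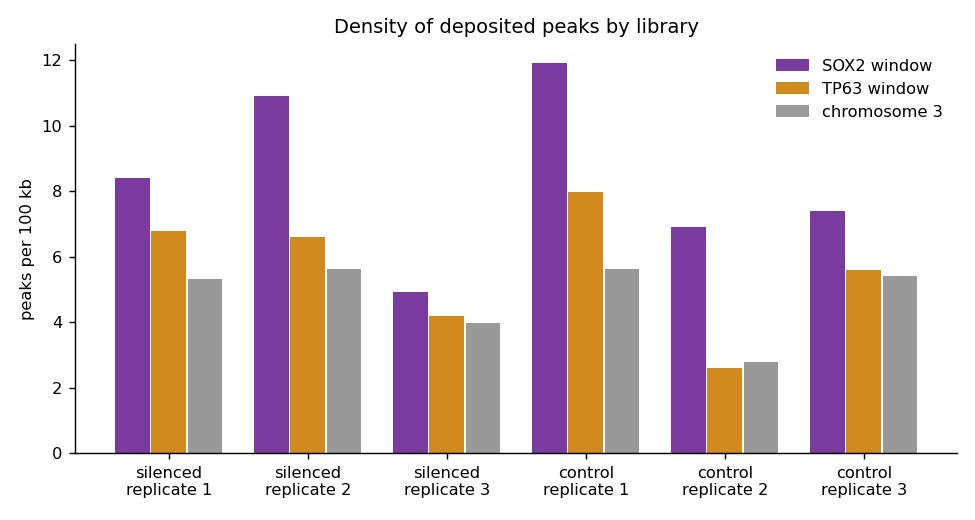
Bars give the number of deposited peaks per 100 kb in the SOX2 window, the TP63 window and chromosome 3 for each library. The SOX2 window is denser than the TP63 window in all 6 libraries, and control replicate 2 has 6.91, 2.60 and 2.8 peaks per 100 kb.

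Peak density was higher in the SOX2 than in the TP63 window in 6 of 6 libraries. Per 100 kb, the SOX2 window held 8.39, 10.9 and 4.94 peaks in the silenced libraries and 11.9, 6.91 and 7.41 in the control libraries. The TP63 window held 6.79, 6.59 and 4.20, and 7.99, 2.60 and 5.59. Chromosome 3 as a whole had 2.8 to 5.62. The libraries come from 1 cell line, and the order of the 2 windows is a description with no test. Against the windows of all 20037 protein-coding genes, drawn the same way, the mean over libraries of 8.39 ± 2.58 (SD, n = 6) for SOX2 was at the 59.7 percentile and the 5.63 ± 1.96 (SD, n = 6) for TP63 at the 26.5 percentile, around a median of 7.70.

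Likeness to other genes was measured as the Euclidean distance, over the 6 libraries, of log2(peaks per Mb of window per 100000 peaks of the list + 1). The protein-coding windows nearest to SOX2 were those of CHST13 on chromosome 3 (distance 0.287), NWD1 on chromosome 19 (0.339) and PPP2R3B on chromosome X (0.340). Nearest to TP63 were JAKMIP2 on chromosome 5 (0.109), FAT1 on chromosome 4 (0.135) and ME1 on chromosome 6 (0.220). The measure holds the number of peaks alone, not their place or height.

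The next comparison asked whether silencing of DLGAP1-AS2 went with a different number of deposited peaks around the 2 genes. Each peak of a list counted, however weak. In the TP63 window 28 of the 40 peaks of control replicate 1 were lower than 4, and those of height 2 had an FDR of 0.541. In control replicate 2 it was 0 of 13. The SOX2 window held 17, 22 and 10 peaks in the silenced libraries and 24, 14 and 15 in the control libraries. The silenced mean was 16.3 ± 6.03 (SD, n = 3) and the control mean 17.7 ± 5.51 (SD, n = 3), a difference smaller than the spread in either group (two-sided exact permutation test, p = 0.9). The covered length was 4562 ± 1382 bp (SD, n = 3) in silenced against 4949 ± 638 bp (SD, n = 3) in control libraries, with an exact permutation p of 0.9. The TP63 window held 34, 33 and 21 peaks in the silenced and 40, 13 and 28 in the control libraries. Here the silenced mean was 29.3 ± 7.23 (SD, n = 3) and the control mean 27.0 ± 13.5 (SD, n = 3), again a difference smaller than the SD of either group (exact permutation p = 0.8). The covered length was 7362 ± 1538 bp (SD, n = 3) and 7573 ± 3373 bp (SD, n = 3), with an exact permutation p of 0.9. With all peaks counted, the groups overlapped in both windows, while 3.04% of protein-coding windows had counts that did not overlap. The sign of these differences turned with single libraries: without silenced replicate 3 the SOX2 difference in peaks went from -1.33 to 1.83, and without control replicate 2 the TP63 difference went from 2.33 to -4.67. Among peaks of height 4 or more, SOX2 counts of 10, 10 and 7 in the silenced and 12, 14 and 11 in the control libraries did not overlap. The difference was -3.33, and -2.33 at an FDR under 0.05 (exact permutation p = 0.1 for each, the smallest possible). TP63 counts at that height overlapped, with 15, 12 and 7 against 12, 13 and 7. How many other windows split at that height was not counted, so the split is not taken as a result about SOX2. At regions called in all 6 lists, heights were all lower in the silenced libraries at 8.79% and all higher at 0.161%.

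In either window, 0 regions separated the groups by being present throughout one and absent from the other. Across the genome, 0.130% of regions were called in all silenced and no control libraries and 0.200% in all control and no silenced libraries. With an FDR of at most 1e-05, the SOX2 window held 4, 3 and 1 peaks in the silenced libraries and 4, 5 and 5 in the control libraries. The TP63 window held 3, 3 and 1 and then 3, 3 and 3. In both windows the lowest number was in silenced replicate 3.

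Accessibility at the shared regions was compared by rank within each list, which puts the lists on a common scale. If the caller adds 1 to both terms of the fold enrichment, as assumed above, the order may still depend on depth. Each of the 37284 regions called in all 6 lists was ranked by fold enrichment within each list, each rank was replaced by its normal score, and limma compared the groups. The percent of regions called different (adjusted p under 0.05) was 0 over the genome, with 4.68% at an unadjusted p under 0.05 and 2.70% at that p and lower in silenced cells. Of the 4 regions in the SOX2 window and the 5 in the TP63 window, 0 passed any of these limits. Scores of the groups overlapped at all 9, while over the genome they did not overlap at 10.2% of regions. At the start of SOX2 the score was lower in silenced cells by a fitted difference of -0.13 (SE 0.38, limma adjusted p = 0.981). Inside the gene the difference was 0.06 (SE 0.40, limma adjusted p = 0.993), and at 24.2 and 70.4 kb it was -0.03 and -0.21.

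**Figure D4:**
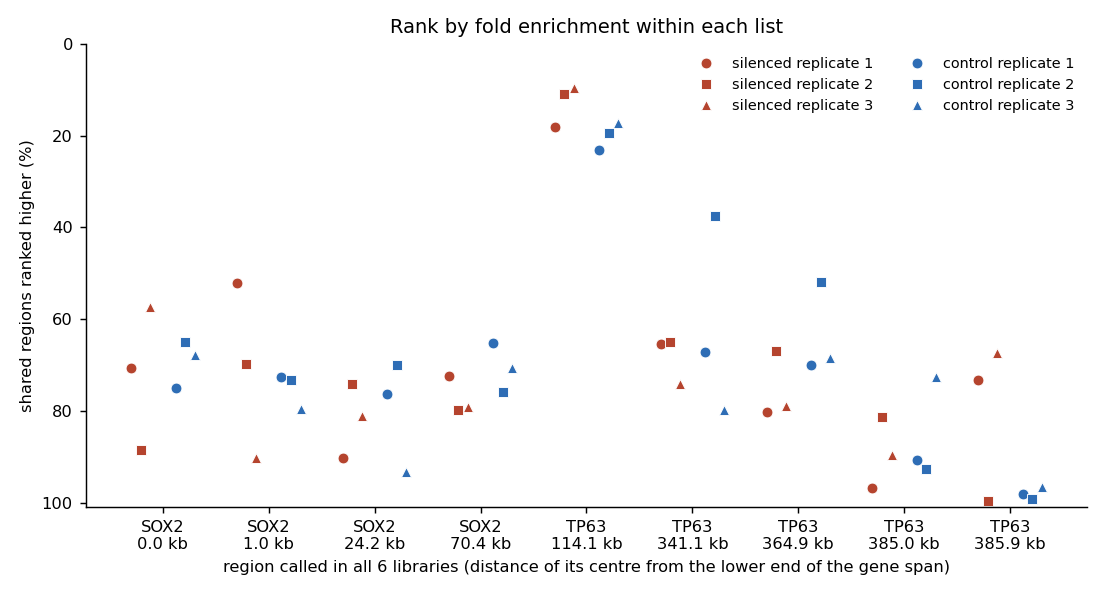
Each point is 1 library at 1 of the 9 regions called in all 6 libraries, and the vertical axis gives the percent of the 37284 shared regions that ranked higher by fold enrichment in that list (0 is the top). The TP63 region at 114.1 kb sits between 9.58% and 23.1% from the top, and silenced and control points overlap at every region.

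The TP63 region at 114.1 kb ranked high among the shared regions, with 18.0%, 10.9% and 9.58% of them above it in the silenced libraries and 23.1%, 19.5% and 17.2% in the control libraries. Its score was higher in silenced cells by 0.30 (SE 0.20, limma adjusted p = 0.963), a difference that did not pass. The SOX2 start stood far lower, with 57.4% to 88.5% of shared regions above it. The largest fitted difference among the 9 regions was 0.87 (SE 0.55, limma adjusted p = 0.963) at 385.9 kb, inside P3H2, where heights were 9, 4 and 6 in the silenced and 4, 5 and 5 in the control libraries. The lowest for TP63 was -0.35 (SE 0.35, limma adjusted p = 0.965), at 364.9 kb. On simulated data made from the shared regions, 200 randomly chosen regions were shifted. The procedure recovered 71% of them when the shift was 2 units and 0% when it was 1. Differences of the size seen here could thus have gone undetected. These are shares over random regions and smaller shifts were not simulated, so they set no limit for any 1 of the 9 regions.

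The place of the strongest peak at each gene in its whole list was compared as well. At TP63, the peak at 114.1 kb had 6.07%, 4.65% and 4.06% of the list ahead of it by p-value in the silenced libraries, and 7.17%, 11.8% and 6.21% in the control libraries. All 3 silenced libraries were nearer the top, at 4.93% ± 1.03 (SD, n = 3) against 8.40% ± 3.01 (SD, n = 3). The exact permutation p was 0.1, the smallest that 3 libraries against 3 allow, and 0.9 after adjustment over 9 tests. Of the 15529 protein-coding genes with a peak in all 6 libraries, 3.96% had all silenced libraries nearer the top and 0.670% all farther. The difference was -3.48 percentage points. It was -3.93 with lists of equal size, -4.58 when peaks were ordered by height, and -1.76 without control replicate 2, whose list was the shortest. The widest and narrowest differences were -6.81 among peaks with an FDR of at most 1e-05 and -1.33 without the libraries of lowest and highest coverage, an alternative chosen after seeing the data. All of these kept the direction. The ranks themselves were 9843, 7812 and 4929 in the silenced and 12259, 10810 and 10285 in the control libraries. At SOX2 the values were 10.3%, 14.4% and 18.5% against 13.7%, 24.6% and 13.4%, and the groups overlapped (exact permutation p = 0.7). The strongest peak at SOX2 was not the same region throughout. It was the region inside the gene in silenced replicates 1 and 2 and control replicate 1, and the start region in the others.

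The label of the cells was set against defining markers. Of 11 squamous markers, SOX2 was the sole gene with a peak within 1 kb of a gene start in all 6 libraries. The keratin genes KRT5 and KRT6A, the desmosomal cadherin gene DSC3, TRIM29 and CLCA2 had no such peak in any library. TP63, KRT14, DSG3, PKP1 and BNC1 had one in a single library each, with heights of 2 to 5. TP63 was read at its 1 listed start only, so a peak at the start of its ΔN forms would not be counted. For comparison, 60.2% of all protein-coding genes had a start peak in all 6 libraries and 17.8% in none. The starts read for the squamous markers are thus mostly without peaks in this line, and SOX2 stands alone among them.

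**Figure D5:**
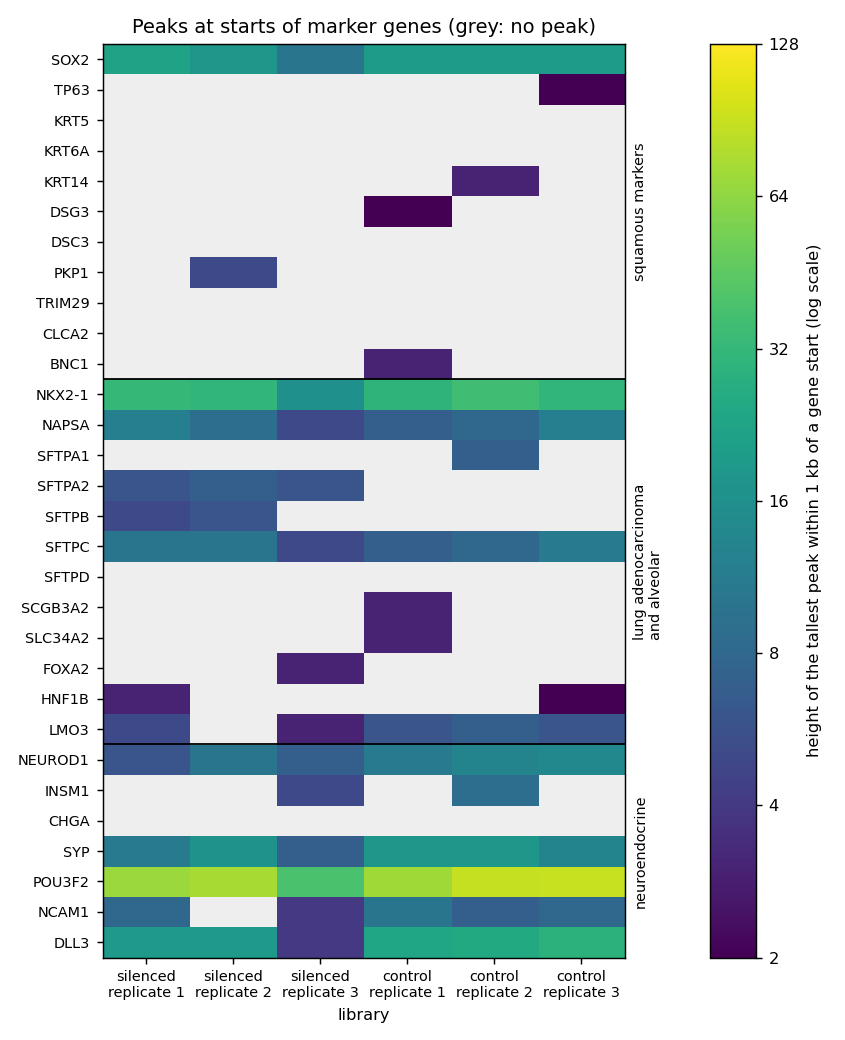
Each cell gives, on a log colour scale, the height of the tallest peak within 1 kb of a start of a marker gene (rows, in 3 groups) in a library (columns), and grey means no peak. Of the squamous markers, SOX2 has a peak in all 6 libraries, with heights of 10 to 22, and KRT5, KRT6A, DSC3, TRIM29 and CLCA2 are grey throughout.

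Markers of other lung tumour types gave a mixed picture. Against 60.2% of all protein-coding genes, 3 (25%) of 12 lung adenocarcinoma and alveolar genes had a start peak in all 6 libraries. These were NKX2-1, the lineage factor of lung glandular cells (heights 16 to 36), NAPSA, an aspartic protease gene (5 to 12), and the surfactant gene SFTPC (5 to 11). The surfactant gene SFTPD had none, and SFTPA2 had peaks of 6, 7 and 6 in the silenced and none in the control libraries. Such a split between the groups occurred at 0.274% of protein-coding genes. SFTPA1 and SFTPA2 are near-identical copies, as are some keratin genes, so their peaks could be split or misplaced between copies. Of 8 neuroendocrine genes, 4 (50%, against the same 60.2%) were called in all 6 libraries: NEUROD1, SYP, POU3F2 and DLL3. CHGA was called in none, and NCAM1 missed a single silenced library. SFTPC, DLL3 and NCAM1 have no listed start and were read at either end of the span. Their peaks may lie at the far end of the gene, so an open start is not shown for them. An open start is not a measure of transcription, and the RNA of these genes was not analysed here.

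The wider list of 32 genes tied to the squamous program, many of them reported targets of p63 or SOX2, split into genes with and without a start peak. A start peak was called in all 6 libraries at 14 (43.8%), in some at 11 and in none at 7 (21.9%). Over all protein-coding genes the shares were 60.2% in all 6 and 17.8% in none. Those called in all 6 included the transcription factor genes KLF5 (heights 24 to 87), TFAP2A, TFAP2C, SNAI2 and PITX1, and the receptor gene NOTCH1. They also included the Notch ligand genes JAG1 and JAG2, the integrin genes ITGA6 and ITGB4, PERP, FGFR2 and S100A2. Of those named, TFAP2C, SNAI2 and ITGB4 were read at either end of the span, so their peaks may lie at the far end. The 7 genes without a peak were KRT5, KRT6A, DSC3, TRIM29, CLCA2, COL17A1 (a hemidesmosome collagen) and GRHL2 (an epithelial transcription factor). KRT15 was called in 3 libraries, and KRT6B, KRT14, KRT17, DSG3, PKP1, BNC1, SERPINB5, FAT2 and ZNF750 in 1 each. The number of genes with a peak was 18, 17 and 15 in the silenced and 17, 16 and 15 in the control libraries, or 16.7 ± 1.53 (SD, n = 3) and 16.0 ± 1.0 (SD, n = 3), a difference smaller than either SD (exact permutation p = 0.8). At 0 genes of the list did the calls split by group. The corresponding numbers were 6.0 ± 1.0 (SD, n = 3) and 5.33 ± 0.577 (SD, n = 3) adenocarcinoma genes (exact permutation p = 0.7) and 5.67 ± 0.577 (SD, n = 3) and 6.33 ± 0.577 (SD, n = 3) neuroendocrine genes (exact permutation p = 0.6).

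Relatives of the 2 factors were also read. Of 8 such genes, 5 (62.5%) had a start peak in all 6 libraries, near the 60.2% of all protein-coding genes. The SOX2-like genes SOX1 and SOX3, which share its subgroup, and SOX21 had a start peak in all 6 libraries, with heights of 10 to 29, 5 to 14 and 4 to 14. SOX9, of another subgroup, was called in all 6 as well, SOX17 in 5 and SOX14 in 3. TP73, a relative of TP63, had no start peak in any library. Of 16 other genes of the same arm of chromosome 3, 14 (87.5%, against 60.2%) were called in all 6 libraries. They included PIK3CA (46 to 125), ECT2 (77 to 161) and ETV5 (78 to 168). TPRG1 was called in 4 libraries and SOX2-OT in none. TP63 was without a peak at its 1 listed start in 5 of 6 libraries, unlike most of these genes. The start of its ΔN forms was not read, and several of these genes were read at more than 1 point. The calls are therefore not like for like, and whether TP63 lacks an open promoter was not tested.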

How the data were processed

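Accessible chromatin was measured by ATAC-seq in 6 libraries of NCI-H1703. Per the submitters' processing notes, the tools were Trimmomatic 0.36, Bowtie2 2.2.6, Picard 2.8.2, MACS2 2.1.1 and bedtools 2.25.0 with build GRCh38; their roles, settings and any shift of read ends are not given in the sources used here. The authors deposited 1 peak list per library. Per the file headers, each peak has a fold enrichment (a ratio), a p-value, an FDR and a pileup signal. The largest p-value was 0.00987 and the shortest peak 200 bp. Peaks on unplaced scaffolds (111 to 191 a list) were left out. Peaks of the 6 lists overlapping by at least 1 bp were merged. Gene spans and starts came from RefSeq tables (GRCh38.p14). A gene without a listed start (13 of the 32 squamous genes) was read at either end of its span. What is called a start peak of such a gene may therefore lie at its far end. Libraries were compared by exact permutation, 9 tests in all with Benjamini-Hochberg adjustment, and ranks with limma 3.58.1 (R 4.3.3), tested on simulated data. Read depth is unknown, so no counting interval is given. Members, lists and tests were chosen with earlier results of these data known. Genes and regions named are the members, their window neighbours, the nearest, best-ranked and most shifted regions, list genes called in some or no libraries, and the nearest windows; other list genes, the regions called in 4 or 5 libraries and the starts of P3H2 and SOX2-OT were chosen after their values were seen. Some list genes are counted but not reported here by name.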

Additional observations from a re-analysis of the deposited data

How the results depend on the processing

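With 3 libraries a group, the exact tests cannot go below 0.1, so only size and sign were compared. Differences are silenced minus control. At an FDR of at most 1e-05 the SOX2 place in the list turned from -2.8 to 7.33 percentage points, TP63 peaks from 2.33 to -0.667 and squamous genes from 0.667 to -3.00. Covered length at TP63 (-211 bp) became 361 at an FDR under 0.05 and 1295 with lists of equal size. With starts read within 5 kb, squamous and adenocarcinoma genes each went to -0.333. Without the libraries of lowest and highest coverage, a choice made after the data were seen, covered length at SOX2 went from -388 to 110 bp, TP63 peaks to -0.5, and the rank scores at 24.2 kb (SOX2) and 341.1 kb (TP63) to 0.12 and 0.22. Ranked by p-value, the score inside SOX2 was -0.09. Ranked by height it was -0.14, and that at 24.2 kb 0.10. The difference in SOX2 peaks was 0 without the libraries of lowest and highest coverage, that in neuroendocrine genes was 0 at 5 kb, and the score at 24.2 kb came to 0 by p-value. The remaining alternatives, single libraries aside, turned no sign. The rank comparison called 0 regions in either window under each setting.

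Leaving out 1 library at a time gave -4.17 to 1.83 SOX2 peaks, -1028 to 345 bp, -4.86 to 0.862 points for its place, -4.67 to 8.83 TP63 peaks, -1992 to 1362 bp, -4.58 to -1.76 points, 0 to 1.5 squamous, 0.167 to 1.17 adenocarcinoma and -0.833 to -0.333 neuroendocrine genes. Rank scores ran from -0.35 to 0.14 at the SOX2 start, -0.23 to 0.38 inside the gene, -0.32 to 0.15 at 24.2 kb and -0.28 to -0.13 at 70.4 kb, and for TP63 from 0.22 to 0.42 at 114.1 kb, -0.41 to 0.15 at 341.1 kb, -0.47 to -0.19 at 364.9 kb, -0.45 to 0.03 at 385.0 kb and 0.45 to 1.54 at 385.9 kb. Regions present throughout the silenced and absent from the control libraries ran from 0 to 2 (SOX2) and 0 to 1 (TP63), and the reverse from 0 to 1 and 0 to 2, since fewer libraries must then meet the condition.

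With the replicate number as a block, the mean differences stayed as they were, for example -1.33 SOX2 peaks, and the paired exact sign-flip p was at least 0.25, the smallest possible; no call changed. Deviations of same-numbered libraries correlated at -0.00196, 0.00238 and -0.00829, so the numbers do not show a pairing. Read depth is unknown, so what it limits was not tested. In 5 libraries 48.1% to 52.1% of peaks were lower than 4, against 2.46% in control replicate 2.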
